A study of Homo sapiens with 12 samples.

Results

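The genes described here are 50 genes of DNA replication and mitosis, 25 for each process, that rise and fall in the cell cycle of dividing cells. The rule lists them by name, and they were chosen with earlier results of these data known. It also asks for comparison among arrays of the same replicate number, since the direction had depended on single arrays. Each was represented by the probe set, among those with 1 gene symbol in the platform annotation, that had the highest mean over 12 arrays. All 50 were measured and all 50 exceeded 4 on the log2 scale on at least 2 arrays, the filter that kept 10561 of 19775 named genes. RNA came from RS4:11 and SEM-K2, established lines of human acute lymphoblastic leukaemia that, per the labels, carry MLL-AF4, a fusion of the genes now called KMT2A and AFF1. Each line is a single cell line, so a difference between the lines is a difference between these cultures. The 6 groups were RS4:11 and SEM-K2 cells that had received, for 6 h, either vehicle, obatoclax at the EC50 of a 72 h assay, or obatoclax at 3 times that EC50 (written 3xEC50). Obatoclax is a small molecule made to block the antiapoptotic BCL2 proteins. The sources used here name neither the vehicle nor the concentrations. Each group held 2 biologic replicates, numbered 1 and 2, and the arrays with 1 number are called a replicate set.

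Replication and mitosis genes are transcribed in successive waves. E2F factors, released when cyclin E and its kinase inactivate the retinoblastoma proteins, drive the genes that license and fire replication origins and supply nucleotides at the start of S phase. MYB-MuvB and FOXM1 act later, through promoter elements called CHR, on the cyclins, kinases, motors and kinetochore proteins of mitosis. The promoters of these genes often hold CCAAT boxes as well. In leukaemic blasts, as in other dividing cells, these transcripts therefore follow how many cells are in each phase. In RNA from whole cultures, a smaller number of cells in a phase and less RNA of these genes per cell cannot be told apart.

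The arrays carried B cell precursor RNA in both lines. All 8 measured markers of that stage passed the filter, although DNTT, the template-independent DNA polymerase of V(D)J recombination, ran from 2.95 to 4.14 on the SEM-K2 arrays and passed through RS4:11 alone. Of markers of other cells, 1 of 4 myeloid, 1 of 6 T and NK, 0 of 2 erythroid and 2 of 6 fibroblast and epithelial genes passed. Those 4 were CSF1R at 6.29 to 6.62, NKG7 at 7.06 to 9.98, COL1A1 at 6.49 to 7.02 and KRT8 at 4.83 to 4.92, while MPO, CD14, CD3D, CD3E and HBB lay between 1.74 and 2.53 on every array. SEM-K2 3xEC50 replicate 2 had the largest gap between 3' and 5' probe sets of ACTB, at 1.97 on the log2 scale against 0.87 to 1.23 on the other 11 arrays. Its gap for GAPDH was also the largest, at 0.61 against 0.08 to 0.30 on the other 11. The replicate sets also differed in the spiked poly-A controls, whose median was 8.71 to 9.24 on the arrays numbered 1 and 3.36 to 8.51 on those numbered 2. The lowest, 3.36, was again that of SEM-K2 3xEC50 replicate 2. These measures are given here since they move with results below, and their part in them was not tested.

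The promoters of the 2 groups of genes differed in the letters they held, and are shown first because the expression values below are given for the same 2 groups. Windows of 250 bases upstream of the start were found in RefSeq (GRCh38.p14) for 42 of the 50 genes, 22 of replication and 20 of mitosis, and searched on both strands. An E2F site, searched as TTTCCCGC, as TTTGGCGC, as TTTCGCGC and as TTTGCCGC, stood in 10 of 22 replication windows, 1 of 20 mitosis windows and 4.65% of the windows of 8729 genes tested. The CHR letters TTTGAA stood in 1 of 22 replication windows, 11 of 20 mitosis windows and 8.43% of all tested. CCAAT stood in 13 of 22, 17 of 20 and 36.1%. The 4 E2F strings can overlap on opposite strands, CCAAT overlaps none of them, and a match is a description of the letters, not a site shown to be bound. The stretches below come from 5 replication and 4 mitosis genes that differed between the replicate sets, and were picked because they hold matches searched for. Those of MCM3 (chr6:52284813-52284922), MCM6 (chr2:135876494-135876603), MCM7 (chr7:100101398-100101497) and E2F1 (chr20:33686386-33686465) lie on the minus strand and that of CDT1 (chr16:88803729-88803788) on the plus strand. Those of CCNB2 (chr15:59105021-59105145) and KIF23 (chr15:69414269-69414348) lie on the plus strand and those of DLGAP5 (chr14:55191601-55191730) and ASPM (chr1:197146685-197146809) on the minus strand. All lie before the start of the gene named, and are written 5′ to 3′ along it with E2F matches and CCAAT boxes in capitals in the first 5, and CHR matches and CCAAT boxes in capitals in the other 4.
MCM3: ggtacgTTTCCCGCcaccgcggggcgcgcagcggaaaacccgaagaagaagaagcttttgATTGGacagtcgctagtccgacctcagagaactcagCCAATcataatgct
MCM6: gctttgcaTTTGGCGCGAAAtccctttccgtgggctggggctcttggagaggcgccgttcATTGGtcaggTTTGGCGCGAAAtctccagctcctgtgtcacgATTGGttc
MCM7: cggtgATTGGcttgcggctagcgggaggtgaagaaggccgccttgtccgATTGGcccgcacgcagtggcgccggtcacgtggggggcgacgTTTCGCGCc
E2F1: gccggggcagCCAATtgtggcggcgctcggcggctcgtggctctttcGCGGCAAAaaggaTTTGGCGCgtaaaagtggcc
CDT1: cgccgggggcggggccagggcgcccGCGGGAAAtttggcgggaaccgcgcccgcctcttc
CCNB2: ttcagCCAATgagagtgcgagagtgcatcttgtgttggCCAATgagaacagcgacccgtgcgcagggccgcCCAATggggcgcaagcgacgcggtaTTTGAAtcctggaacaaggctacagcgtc
KIF23: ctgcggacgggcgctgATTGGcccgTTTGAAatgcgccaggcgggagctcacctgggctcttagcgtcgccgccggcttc
DLGAP5: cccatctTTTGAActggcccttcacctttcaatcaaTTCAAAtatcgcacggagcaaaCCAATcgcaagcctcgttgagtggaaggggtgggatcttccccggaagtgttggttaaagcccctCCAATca
ASPM: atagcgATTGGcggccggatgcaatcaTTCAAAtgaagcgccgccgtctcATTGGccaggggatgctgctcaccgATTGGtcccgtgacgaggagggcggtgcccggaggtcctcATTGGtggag
In MCM6, TTTGGCGC and the reverse complement of TTTCGCGC overlap in each of the capital runs of E2F letters, so its 4 matches lie in 2 places. CDT1 held an E2F match and no CCAAT box in the stretch shown, and DLGAP5 held 2 CHR matches, 1 on each strand. The choice of stretches does not link a match to the replicate difference. E2F letters were absent before MCM2, MCM10, CDC45, POLE2 and CCNE1, which passed the replicate test below. They stood before GINS2, PCNA, RFC3, LIG1 and TYMS, which did not. CHR letters were absent before CCNB1, CDC25C, AURKB, BUB1, KIF20A, CENPE and NUSAP1, which passed. They stood before CDK1, CDC20, PLK1, KIF11, TOP2A and MKI67, which did not.

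The replication genes were higher and the mitosis genes lower on the arrays numbered 2 than on those numbered 1. Of 50 genes, 26 passed the test of replicate 2 against replicate 1 (limma, adjusted p under 0.05 over all genes tested), against 12.3% of all genes. Among the replication genes 10 were higher and 1, CDT1, was lower on replicate 2, and among the mitosis genes 0 were higher and 15 were lower, where 4.6% of all genes were higher and 7.71% lower. The median log2 difference was 0.30 over the 25 replication genes, of which 21 lay above 0, and -0.48 over the 25 mitosis genes, of which 25 lay below 0. Over all genes tested the median was -0.02. In all 6 groups alike, 33 of the 50 genes kept 1 sign (21.7% of all genes did), 15 replication genes up and 1 down, and 17 mitosis genes down.

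**Figure D1:**
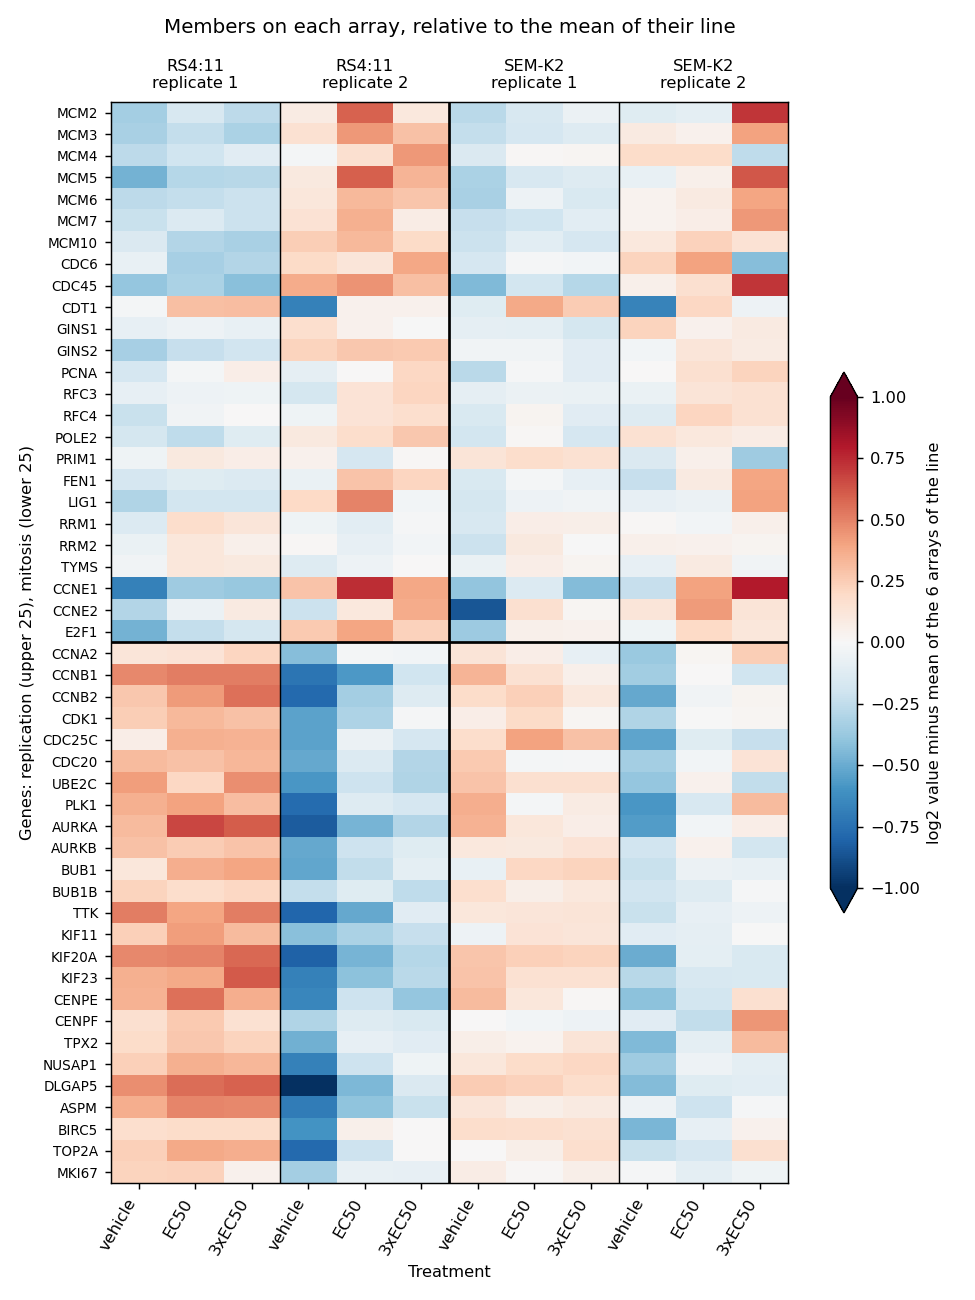
Log2 value of each of the 50 genes (rows, replication above the line and mitosis below) on each of the 12 arrays (columns), minus the mean of the 6 arrays of the same line; red is above and blue below that mean, and colours end at 1 and -1. The mitosis rows are red on every RS4:11 array of replicate 1, mostly red on those of SEM-K2 and mostly blue in both replicate 2 blocks, with the vehicle arrays of replicate 2 the bluest, and most replication rows show the reverse.

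The 2 groups of genes parted on every RS4:11 array. The median of the mitosis genes, as deviation from the line's mean, was 0.27 with vehicle, 0.36 at EC50 and 0.35 at 3xEC50 in replicate 1, and -0.59, -0.21 and -0.15 in replicate 2. That of the replication genes was -0.22, -0.16 and -0.14 in replicate 1 and 0.10, 0.18 and 0.21 in replicate 2. The RS4:11 replicate sets thus did not overlap in either median. In SEM-K2 the mitosis median was 0.17, 0.12 and 0.12 in replicate 1 and -0.34, -0.09 and -0.01 in replicate 2. Replication genes there had medians of -0.18, -0.02 and -0.08 in replicate 1 and 0.00, 0.10 and 0.14 in replicate 2, again without overlap.

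**Figure D2:**
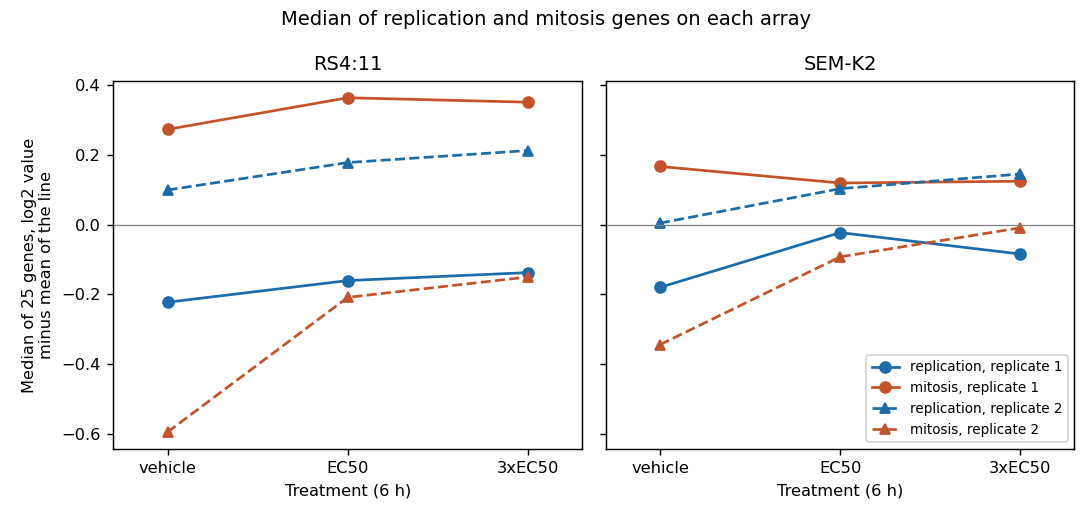
Median deviation from the line's mean (log2) of 25 replication genes (blue) and 25 mitosis genes (orange) on each array, by treatment, with replicate 1 as circles on solid lines and replicate 2 as triangles on dashed lines. The lowest point in each line is the mitosis median of vehicle replicate 2, at -0.59 in RS4:11 and -0.34 in SEM-K2.

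The vehicle arrays of replicate 2 stood lowest for mitosis genes. RS4:11 vehicle replicate 2 was the lowest of that line's 6 arrays for 24 of 25 mitosis genes, and for 30.8% of all genes tested. SEM-K2 vehicle replicate 2 was the lowest of its 6 for 22 of 25, and for 35.7% of all genes. For replication genes the lowest array was vehicle replicate 1, for 16 of 25 genes in each line, against 11.97% of all genes in RS4:11 and 10.9% in SEM-K2.

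Within RS4:11 alone, 21 of the 50 genes passed the replicate test (8 replication genes higher, 13 mitosis genes lower; 5.89% of all genes), and the medians were 0.38 for replication and -0.65 for mitosis. Within SEM-K2 alone 0 passed (0.142% of all genes; 14 of 50 had an unadjusted p under 0.05, as did 1709 of all 10561), with medians of 0.18 and -0.24 in the same directions. A difference between the lines in the replicate difference was called for 0 of 50 genes (0.227% of all genes), and 14 of the 50 had an unadjusted p under 0.05, as did 1185 of all 10561. The mitosis median of replicate 2 minus replicate 1 in the single groups was -0.91 with vehicle, -0.59 at EC50 and -0.52 at 3xEC50 in RS4:11, and -0.50, -0.22 and -0.11 in SEM-K2. The count of 26 fell to 7, 8 or 9 without an RS4:11 array at 3xEC50, vehicle or EC50, where 5.08%, 4.38% and 4.77% of all genes were called in place of 12.3%. Without a SEM-K2 array it was 20 with vehicle, 22 at EC50 and 25 at 3xEC50, where 12.1%, 8.72% and 6.9% of all genes were called. Leaving out either array of a group takes the whole group out of this comparison. The 7 genes called whichever array was left out were CCNE1, CDC45, MCM3 and MCM10, all higher, and CDC25C, KIF20A and KIF23, all lower.

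The proteins MCM2 to MCM7 form the ring-shaped helicase that unwinds DNA at the fork. In the sentences that follow, the 2 values of a treatment are those of replicate 1 and replicate 2, as log2 values. MCM2 read 11.74 and 12.16 with vehicle, 11.92 and 12.67 at EC50 and 11.82 and 12.18 at 3xEC50 in RS4:11, and 11.90 and 12.05 with vehicle, 12.02 and 12.07 at EC50 and 12.11 and 12.89 at 3xEC50 in SEM-K2. MCM3 read 12.09 and 12.56 with vehicle, 12.17 and 12.84 at EC50 and 12.09 and 12.70 at 3xEC50 in RS4:11, and 12.06 and 12.40 with vehicle, 12.14 and 12.35 at EC50 and 12.18 and 12.71 at 3xEC50 in SEM-K2. Both were higher on replicate 2 in every group, by 0.42 ± 0.11 and 0.47 ± 0.08 (log2, ± SE of the fit over 12 arrays). MCM5 read 11.18 and 11.75 with vehicle, 11.36 and 12.25 at EC50 and 11.37 and 11.98 at 3xEC50 in RS4:11, and 11.18 and 11.42 with vehicle, 11.34 and 11.54 at EC50 and 11.37 and 12.12 at 3xEC50 in SEM-K2. MCM6 read 12.19 and 12.57 with vehicle, 12.21 and 12.78 at EC50 and 12.24 and 12.74 at 3xEC50 in RS4:11, and 12.11 and 12.47 with vehicle, 12.38 and 12.52 at EC50 and 12.28 and 12.83 at 3xEC50 in SEM-K2. MCM7 read 12.66 and 13.02 with vehicle, 12.74 and 13.24 at EC50 and 12.67 and 12.95 at 3xEC50 in RS4:11, and 12.35 and 12.61 with vehicle, 12.38 and 12.65 at EC50 and 12.47 and 13.01 at 3xEC50 in SEM-K2. These 3 also had the higher value on replicate 2 in all 6 groups, by 0.54 ± 0.11, 0.42 ± 0.08 and 0.37 ± 0.07, and the adjusted p of the 5 helicase subunits ran from 0.0140 to 0.0432. MCM4, the remaining subunit, differed by 0.23 ± 0.11 (adjusted p = 0.177) and read lower on replicate 2 in SEM-K2 at 3xEC50, at 11.43 and 11.15. MCM10, which helps to start the helicase, read 9.42 and 9.82 with vehicle, 9.28 and 9.89 at EC50 and 9.25 and 9.76 at 3xEC50 in RS4:11, and 9.67 and 9.99 with vehicle, 9.79 and 10.12 at EC50 and 9.72 and 10.03 at 3xEC50 in SEM-K2. CDC45, which joins MCM2-7 and GINS in the active helicase, read 9.07 and 9.83 with vehicle, 9.15 and 9.91 at EC50 and 9.04 and 9.76 at 3xEC50 in RS4:11, and 9.26 and 9.75 with vehicle, 9.52 and 9.86 at EC50 and 9.42 and 10.42 at 3xEC50 in SEM-K2. Their differences of 0.41 ± 0.08 and 0.68 ± 0.10 had adjusted p-values of 0.0145 and 0.00710.

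CDT1, which loads MCM2-7 onto origins, was called in the other direction. Its values were 9.60 and 8.94 with vehicle, 9.91 and 9.66 at EC50 and 9.93 and 9.66 at 3xEC50 in RS4:11, and 9.65 and 9.10 with vehicle, 10.15 and 9.97 at EC50 and 10.02 and 9.71 at 3xEC50 in SEM-K2. In every group replicate 2 was the lower, and the difference was -0.37 ± 0.09 (adjusted p = 0.0303). Its second probe set gave -0.44, on a mean over the arrays of 9.37 against 9.69 for the one used, whose probes can match other transcripts. CDC6, the partner of CDT1 in loading, differed by 0.30 ± 0.13, and the helicase subunits GINS1 and GINS2 by 0.19 ± 0.07 and 0.31 ± 0.09; these 3 were not called (adjusted p = 0.1505, 0.107 and 0.0619). Of the 7 fork genes only POLE2, a subunit of the leading-strand polymerase, was called. POLE2 read 8.91 and 9.18 with vehicle, 8.83 and 9.26 at EC50 and 8.96 and 9.35 at 3xEC50 in RS4:11, and 8.80 and 9.14 with vehicle, 8.997 and 9.08 at EC50 and 8.82 and 9.05 at 3xEC50 in SEM-K2. It was higher on replicate 2 in each group, by 0.29 ± 0.08 (adjusted p = 0.0384). The differences of the other 6 were 0.13 ± 0.08 for RFC3 and 0.17 ± 0.07 for RFC4, both of the clamp loader, 0.17 ± 0.07 for the clamp PCNA, -0.19 ± 0.09 for the primase subunit PRIM1, 0.23 ± 0.09 for the flap nuclease FEN1 and 0.31 ± 0.11 for the ligase LIG1. The nucleotide genes RRM1 and RRM2, which encode ribonucleotide reductase, and TYMS, the thymidylate synthase gene, lay within -0.07 ± 0.07 and 0.01 ± 0.08, with RRM1 at -0.04 ± 0.08, and none of these 3 was called.

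Among the 3 genes of the switch into S phase, CCNE1 and E2F1 were called. CCNE1, one of the genes for cyclin E, read 7.23 and 8.20 with vehicle, 7.56 and 8.65 at EC50 and 7.53 and 8.29 at 3xEC50 in RS4:11, and 5.95 and 6.11 with vehicle, 6.20 and 6.75 at EC50 and 5.91 and 7.13 at 3xEC50 in SEM-K2. Its replicate difference of 0.79 ± 0.14 (adjusted p = 0.0130) was the largest in size of the 50. E2F1, an activating member of its family, read 8.34 and 9.07 with vehicle, 8.57 and 9.21 at EC50 and 8.63 and 9.04 at 3xEC50 in RS4:11, and 8.09 and 8.41 with vehicle, 8.50 and 8.65 at EC50 and 8.49 and 8.56 at 3xEC50 in SEM-K2. It was higher on replicate 2 in all 6 groups, by 0.39 ± 0.10 (adjusted p = 0.0433). CCNE2, the other cyclin E gene, differed by 0.31 ± 0.12 (adjusted p = 0.117).

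All 25 mitosis genes had a replicate difference below 0. Cyclin B, encoded by CCNB1 and CCNB2, activates CDK1 for entry into mitosis. CCNB1 read 11.36 and 10.15 with vehicle, 11.40 and 10.31 at EC50 and 11.40 and 10.69 at 3xEC50 in RS4:11, and 11.74 and 11.05 with vehicle, 11.54 and 11.40 at EC50 and 11.45 and 11.19 at 3xEC50 in SEM-K2. CCNB2 read 11.88 and 10.83 with vehicle, 12.04 and 11.27 at EC50 and 12.16 and 11.48 at 3xEC50 in RS4:11, and 11.77 and 11.08 with vehicle, 11.82 and 11.55 at EC50 and 11.69 and 11.61 at 3xEC50 in SEM-K2. Replicate 2 was lower in every group for both, with differences of -0.68 ± 0.15 and -0.59 ± 0.13. CDC25C, the phosphatase that releases CDK1, read 7.95 and 7.36 with vehicle, 8.24 and 7.83 at EC50 and 8.24 and 7.72 at 3xEC50 in RS4:11, and 8.12 and 7.42 with vehicle, 8.34 and 7.82 at EC50 and 8.24 and 7.71 at 3xEC50 in SEM-K2. Its difference of -0.55 ± 0.07 had the smallest adjusted p of the 50, 0.00564. UBE2C, the ubiquitin-conjugating enzyme of the anaphase-promoting complex, read 10.54 and 9.53 with vehicle, 10.33 and 9.91 at EC50 and 10.58 and 9.82 at 3xEC50 in RS4:11, and 12.04 and 11.37 with vehicle, 11.91 and 11.79 at EC50 and 11.91 and 11.51 at 3xEC50 in SEM-K2. It was lower on replicate 2 in every group, with a difference of -0.56 ± 0.12. CDK1, the anaphase activator CDC20 and cyclin A2 (CCNA2) differed by -0.38 ± 0.11, -0.39 ± 0.13 and -0.19 ± 0.12 and were not called (adjusted p = 0.0539, 0.0849 and 0.289).

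Of the 6 kinases of mitosis 5 were called, with adjusted p-values from 0.0305 to 0.0384 apart from BUB1 at 0.0237. AURKA, the centrosomal Aurora kinase, read 10.21 and 9.06 with vehicle, 10.56 and 9.43 at EC50 and 10.50 and 9.60 at 3xEC50 in RS4:11, and 10.60 and 9.69 with vehicle, 10.36 and 10.23 at EC50 and 10.32 and 10.32 at 3xEC50 in SEM-K2. Its difference was -0.70 ± 0.17, and the SEM-K2 arrays at 3xEC50 read the same. AURKB, the kinase of the chromosomal passenger complex, read 10.89 and 10.08 with vehicle, 10.85 and 10.39 at EC50 and 10.88 and 10.48 at 3xEC50 in RS4:11, and 10.57 and 10.27 with vehicle, 10.56 and 10.50 at EC50 and 10.60 and 10.28 at 3xEC50 in SEM-K2. The checkpoint kinase gene BUB1 read 10.67 and 10.04 with vehicle, 10.93 and 10.32 at EC50 and 10.95 and 10.46 at 3xEC50 in RS4:11, and 10.57 and 10.42 with vehicle, 10.85 and 10.58 at EC50 and 10.86 and 10.57 at 3xEC50 in SEM-K2. BUB1B, which encodes the checkpoint protein BUBR1, read 11.48 and 11.02 with vehicle, 11.43 and 11.14 at EC50 and 11.47 and 11.01 at 3xEC50 in RS4:11, and 11.51 and 11.15 with vehicle, 11.40 and 11.21 at EC50 and 11.44 and 11.33 at 3xEC50 in SEM-K2. AURKB, BUB1 and BUB1B were lower on replicate 2 in all 6 groups, with differences of -0.39 ± 0.10, -0.41 ± 0.09 and -0.31 ± 0.08. TTK, the gene of the checkpoint kinase MPS1, read 10.05 and 8.74 with vehicle, 9.93 and 9.02 at EC50 and 10.05 and 9.42 at 3xEC50 in RS4:11, and 9.88 and 9.55 with vehicle, 9.89 and 9.69 at EC50 and 9.90 and 9.72 at 3xEC50 in SEM-K2. It too was lower in all 6 groups, with a difference of -0.59 ± 0.15. PLK1 differed by -0.50 ± 0.17 (adjusted p = 0.0813), with its SEM-K2 arrays at 3xEC50 at 8.90 and 9.13, replicate 2 the higher.

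Of the 10 motor, spindle and kinetochore genes 6 were called, and KIF20A and DLGAP5 had the largest differences of the mitosis genes. KIF20A, a kinesin of cytokinesis, read 10.44 and 9.15 with vehicle, 10.46 and 9.50 at EC50 and 10.54 and 9.68 at 3xEC50 in RS4:11, and 10.46 and 9.69 with vehicle, 10.43 and 10.09 at EC50 and 10.41 and 10.03 at 3xEC50 in SEM-K2. KIF23, also a kinesin of cytokinesis, read 9.10 and 8.07 with vehicle, 9.12 and 8.33 at EC50 and 9.35 and 8.47 at 3xEC50 in RS4:11, and 9.12 and 8.55 with vehicle, 8.98 and 8.67 at EC50 and 8.98 and 8.68 at 3xEC50 in SEM-K2. DLGAP5, a microtubule-binding spindle protein, read 10.96 and 9.47 with vehicle, 11.05 and 10.05 at EC50 and 11.09 and 10.34 at 3xEC50 in RS4:11, and 10.97 and 10.29 with vehicle, 10.95 and 10.60 at EC50 and 10.90 and 10.62 at 3xEC50 in SEM-K2. Replicate 2 was lower in every group for these 3, with differences of -0.76 ± 0.13, -0.65 ± 0.11 and -0.76 ± 0.15 (adjusted p = 0.0121, 0.0135 and 0.0187). CENPE, a kinesin of the kinetochore, read 9.19 and 8.19 with vehicle, 9.40 and 8.64 at EC50 and 9.21 and 8.46 at 3xEC50 in RS4:11, and 9.50 and 8.77 with vehicle, 9.30 and 9.002 at EC50 and 9.20 and 9.35 at 3xEC50 in SEM-K2. It was lower on replicate 2 in 5 groups and higher in SEM-K2 at 3xEC50, with a difference of -0.56 ± 0.14. NUSAP1, which bundles spindle microtubules, read 12.69 and 11.78 with vehicle, 12.80 and 12.24 at EC50 and 12.78 and 12.41 at 3xEC50 in RS4:11, and 12.65 and 12.18 with vehicle, 12.72 and 12.48 at EC50 and 12.74 and 12.44 at 3xEC50 in SEM-K2. ASPM, a protein of the spindle poles, read 11.55 and 10.49 with vehicle, 11.68 and 10.79 at EC50 and 11.67 and 10.97 at 3xEC50 in RS4:11, and 11.83 and 11.65 with vehicle, 11.76 and 11.49 at EC50 and 11.79 and 11.69 at 3xEC50 in SEM-K2. Both were lower on replicate 2 throughout, with differences of -0.48 ± 0.10 and -0.53 ± 0.14, and the largest gap for ASPM, -1.07, was between the RS4:11 vehicle arrays. The kinesin KIF11, the spindle assembly factor TPX2, BIRC5 (survivin) of the passenger complex and the kinetochore protein CENPF differed by -0.39 ± 0.11, -0.30 ± 0.11, -0.35 ± 0.11 and -0.17 ± 0.12 and were not called (adjusted p from 0.0502 to 0.378). TOP2A, the topoisomerase that untangles sister chromatids, differed by -0.40 ± 0.13 and the proliferation antigen gene MKI67 by -0.21 ± 0.09 (adjusted p = 0.0696 and 0.125). In SEM-K2 at 3xEC50, the array pair that holds the outlying ACTB value, 8 mitosis genes lay above 0 on replicate 2 minus replicate 1, CENPF at 0.49, CCNA2 at 0.33, PLK1 at 0.23, TPX2 at 0.18, CENPE at 0.15, CDC20 at 0.15, CDK1 at 0.00 and AURKA at 0.00.

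**Figure D3:**
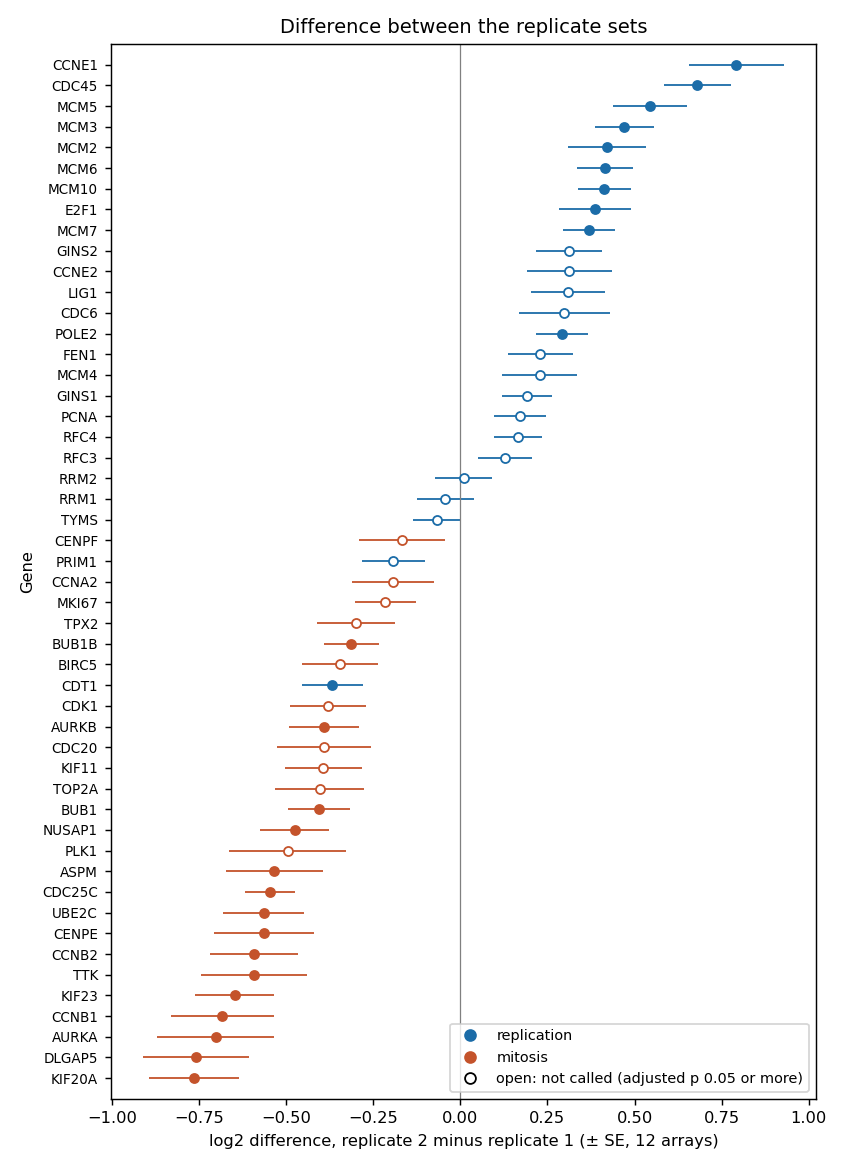
Log2 difference of replicate 2 minus replicate 1 for each of the 50 genes, with the SE of the fit over 12 arrays as bars; blue is replication and orange mitosis, and open points had an adjusted p of 0.05 or more. All 25 mitosis genes lie left of 0, and 21 of 25 replication genes lie right of it, with CDT1 the only replication gene called on the left.

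Genes with several probe sets showed whether a direction rested on the probe set used. They read the same RNA on the same arrays, so they cannot show what set the replicate sets apart. Of 93 probe sets of the 50 genes that lay above the floor of 4, those of 29 genes could be set against each other, and in 24 of the 29 all probe sets had the same sign of the replicate difference. AURKA had a second probe set at -0.78 and CCNE2 one at 0.55. The signs were mixed for MCM4, RRM1, TYMS, GINS2 and MKI67. The 3 other probe sets of MKI67 lay between -0.01 and 0.07, where the one used gave -0.21.

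The comparison of each dose with vehicle asks what 6 h of obatoclax did to replication and mitosis transcripts, and none of the 50 genes passed the test in it. In RS4:11 at EC50 and at 3xEC50, 0 of 50 were called (0.0% of all genes in both), and 0 and 0 had a p under 0.05 before adjustment (4.2% and 4.9% of all genes). In SEM-K2 at EC50, 0 of 50 were called (0.17% of all genes) and 2, CDT1 and CCNE2, had a p under 0.05 before adjustment (5.47%). At 3xEC50 in SEM-K2, 0 of 50 were called (0.824%) and 0 had such a p (11.7%). With the replicate number as a block, in limma again, the 4 counts stayed at 0 called, and 2, 4, 3 and 4 of the 50 had a p under 0.05 before adjustment, where 7.98%, 9.76%, 9.84% and 17.5% of all genes did. The steps from EC50 to 3xEC50 gave 0 calls among the 50 in RS4:11 (0.0%) and in SEM-K2 (0.0%), as did the differences between the lines in the response to EC50 (0.00947%) and to 3xEC50 (0.0379%).

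The fitted differences of the probe set used for each gene lay mostly above 0. In RS4:11 46 of 50 genes were above 0 at EC50 and 43 at 3xEC50, and in SEM-K2 44 and 42, where 55.7%, 54.0%, 61.9% and 58.6% of all genes were. The medians of the 50 were 0.17, 0.19, 0.13 and 0.15 on the log2 scale, against 0.02, 0.02, 0.05 and 0.06 over all genes. Of the 29 genes with several probe sets, 18, 22, 22 and 15 had 1 sign over all of them. The 2 doses of a line share its vehicle arrays, so their counts are not independent of each other.

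Set against the vehicle array of the same number, the mitosis genes gave small differences in replicate 1 and larger ones in replicate 2. Their median in RS4:11 was 0.08 at EC50 and 0.05 at 3xEC50 in replicate 1, and 0.37 and 0.42 in replicate 2. In SEM-K2 it was -0.03 and -0.05 in replicate 1, with 8 and 8 of 25 genes above 0, and 0.31 and 0.32 in replicate 2, with 22 and 24 above 0. The sign of the SEM-K2 median turned with the replicate set. Over all genes the 8 medians lay between -0.01 and 0.13. The replication genes were steadier, with medians of 0.12 and 0.18 in RS4:11 at EC50, 0.11 and 0.14 at 3xEC50, 0.16 and 0.13 in SEM-K2 at EC50 and 0.14 and 0.22 at 3xEC50. All these 8 were above 0.

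**Figure D4:**
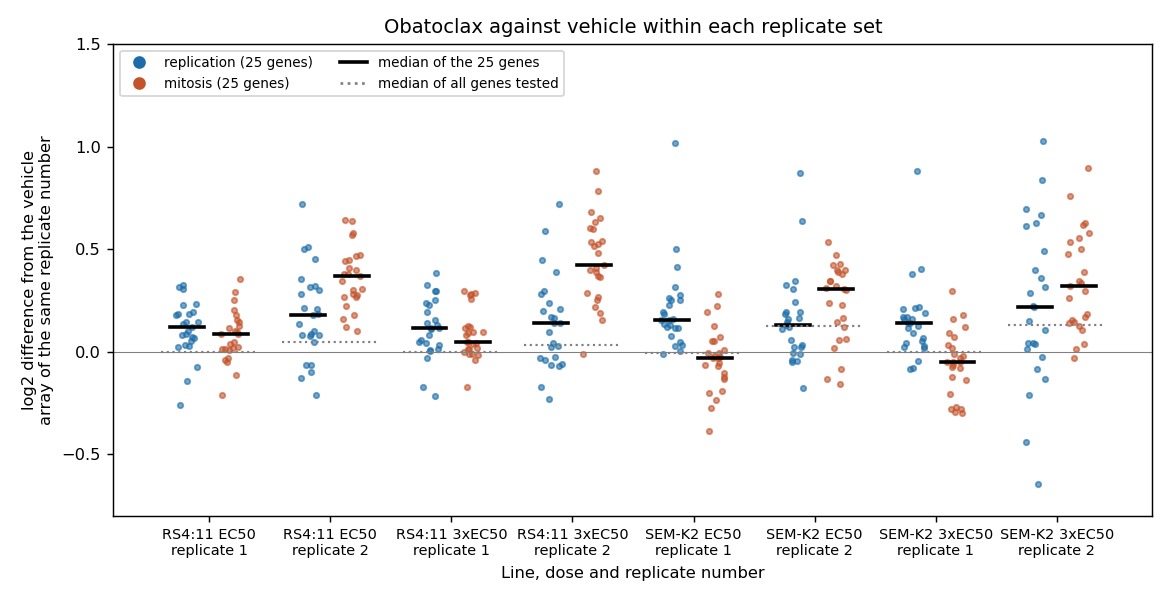
Log2 difference of each gene from the vehicle array with the same replicate number, by line, dose and replicate (blue replication, orange mitosis, 25 genes each); black bars are medians of the 25 genes and dotted lines medians of all genes tested. The mitosis medians are -0.05 to 0.08 in replicate 1 and 0.31 to 0.42 in replicate 2, while the replication medians run from 0.11 to 0.22.

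The medians of the fitted differences turned sign with single arrays as well. Without RS4:11 vehicle replicate 2 the mitosis median went from 0.21 to -0.21 at EC50 and from 0.29 to -0.19 at 3xEC50, and without RS4:11 vehicle replicate 1 it was 0.68 and 0.67. Without SEM-K2 vehicle replicate 2 it went from 0.11 to -0.13 at EC50 and from 0.14 to -0.12 at 3xEC50, and without SEM-K2 vehicle replicate 1 it was 0.40 and 0.39. In both lines the median was thus below 0 with vehicle replicate 1 alone and above 0 with vehicle replicate 2 alone. For the treated arrays of RS4:11 it was below 0 with replicate 2 alone and above 0 with replicate 1 alone: the mitosis median was -0.09 without EC50 replicate 1, 0.54 without EC50 replicate 2, -0.01 without 3xEC50 replicate 1 and 0.54 without 3xEC50 replicate 2. In SEM-K2 it was 0.01 without EC50 replicate 1, 0.18 without EC50 replicate 2, 0.08 without 3xEC50 replicate 1 and 0.18 without 3xEC50 replicate 2. The replication genes went the other way, since their replicate 1 arrays were the low ones. Their median in RS4:11 was -0.04 at EC50 and -0.07 at 3xEC50 without vehicle replicate 1, -0.10 without EC50 replicate 2 and -0.08 without 3xEC50 replicate 2, and 0.25 to 0.32 without the other array of each pair. In SEM-K2 it stayed above 0 without each array in turn. It was 0.02 without vehicle replicate 1, 0.24 without vehicle replicate 2, 0.20 without EC50 replicate 1 and 0.08 without EC50 replicate 2 in the EC50 comparison. In the 3xEC50 comparison the same vehicle arrays gave 0.07 and 0.23, the median was 0.31 without 3xEC50 replicate 1, and it was 0.02 without 3xEC50 replicate 2, the array with the outlying ACTB value.

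Of the 50 genes, 15 lay above the vehicle array of the same number in all 8 differences (10.6% of all genes did) and 0 lay below it in all 8 (5.75% of all genes). These were the replication genes MCM2, MCM5, MCM6, CDT1, PCNA, RFC3, RFC4, FEN1, TYMS and CCNE2 and the mitosis genes CDC25C, BUB1, KIF11, NUSAP1 and TOP2A. At the 2 doses of a line the same vehicle arrays enter, so the 8 are not independent. The list also rests on the probe set used for each gene. Other probe sets of MCM6, RFC3, TYMS, CCNE2, CDC25C, NUSAP1 and TOP2A had a mean difference below 0 in some dose comparison. In SEM-K2 at 3xEC50 it was -0.31 for NUSAP1 and -0.23 for TOP2A. Those of MCM5, CDT1, FEN1 and BUB1 stayed above 0, and MCM2, PCNA, RFC4 and KIF11 had no other above the floor.

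CDT1 had the largest difference in RS4:11 at both doses and in SEM-K2 at EC50. It was above vehicle by 0.31 and 0.72 in RS4:11 at EC50 and 0.33 and 0.72 at 3xEC50, and by 0.50 and 0.87 in SEM-K2 at EC50 and 0.38 and 0.61 at 3xEC50, in replicates 1 and 2. Every treated array of CDT1 thus read above both vehicle arrays of its line, among which replicate 2 was the lowest array. The fitted differences were 0.52 ± 0.26, 0.52 ± 0.26, 0.69 ± 0.26 and 0.49 ± 0.26, with adjusted p-values of 1.00, 0.999, 0.788 and 0.511. With the replicate block they were 0.444, 0.289, 0.128 and 0.149, so CDT1 was called by neither fit. The second probe set of CDT1 pointed the same way, at 0.28, 0.42, 0.39 and 0.36. Leaving out 1 array at a time moved the 4 differences within 0.19 to 0.85, 0.19 to 0.85, 0.41 to 0.96 and 0.22 to 0.77, with no change of sign.

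The cyclin E genes came next. CCNE2 read 10.62 and 10.70 with vehicle, 10.85 and 11.02 at EC50 and 11.00 and 11.29 at 3xEC50 in RS4:11, and 8.19 and 9.17 with vehicle, 9.21 and 9.48 at EC50 and 9.07 and 9.18 at 3xEC50 in SEM-K2. In SEM-K2 at EC50 its differences were 1.02 and 0.30 in replicates 1 and 2, with the lowest value on SEM-K2 vehicle replicate 1, and the fitted difference was 0.66 ± 0.28 (adjusted p = 0.876), or 0.17 to 1.15 without single arrays. At 3xEC50 in RS4:11 the fitted difference was 0.48 ± 0.28, from 0.38 and 0.59. Its second probe set gave 0.42 in RS4:11 at 3xEC50 and 0.49 in SEM-K2 at EC50 but -0.04 in SEM-K2 at 3xEC50, where the one used gave 0.45 ± 0.28. CCNE1 differed by 0.39 ± 0.51 in RS4:11 at EC50, 0.44 ± 0.51 in SEM-K2 at EC50 and 0.49 ± 0.51 in SEM-K2 at 3xEC50, where replicate 1 gave -0.04 and replicate 2 gave 1.02. The CCNE1 differences in RS4:11 at EC50 and SEM-K2 at 3xEC50 ranged from -0.16 to 0.94 and from -0.12 to 1.10 without single arrays.

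MCM2 had the largest difference in SEM-K2 at 3xEC50, 0.52 ± 0.31 (adjusted p = 0.567), from 0.21 and 0.84 in replicates 1 and 2, and the high value lay on replicate 2, the array with the outlying ACTB value. Without single arrays it ran from 0.14 to 0.91. CDC25C differed by 0.38 ± 0.34 in RS4:11 at EC50, from 0.29 and 0.47. DLGAP5 differed by 0.50 ± 0.51 in RS4:11 at 3xEC50, from 0.13 and 0.88, and without RS4:11 vehicle replicate 2 it was -0.24. None of these 3 was called.

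Differences below 0 were small for the probe sets used. Some other probe sets, with lower means over the arrays, fell further in SEM-K2 at 3xEC50. Examples were AURKB at -1.31, MCM4 at -0.84, ASPM at -0.82 and BIRC5 at -0.66, while another probe set of MCM4 gave 0.37. The values that follow are again those of the probe sets used. GINS1 had a fitted difference below 0 in all 4 comparisons, at -0.05 ± 0.17, -0.08 ± 0.17, -0.09 ± 0.17 and -0.11 ± 0.17. GINS1 read 11.44 and 11.69 with vehicle, 11.47 and 11.56 at EC50 and 11.45 and 11.52 at 3xEC50 in RS4:11, and 11.36 and 11.67 with vehicle, 11.35 and 11.49 at EC50 and 11.27 and 11.54 at 3xEC50 in SEM-K2. Its sign turned without single arrays in each of the 4. CDC6 was at -0.25 ± 0.28 in SEM-K2 at 3xEC50. CDC6 read 9.57 and 9.83 with vehicle, 9.31 and 9.76 at EC50 and 9.35 and 10.02 at 3xEC50 in RS4:11, and 9.40 and 9.79 with vehicle, 9.55 and 9.97 at EC50 and 9.54 and 9.14 at 3xEC50 in SEM-K2. Its replicate 2 array at 3xEC50 in SEM-K2 was low and its replicate 1 array was not. PRIM1, at -0.04 ± 0.19 in RS4:11 at EC50, read 10.43 and 10.51 with vehicle, 10.56 and 10.30 at EC50 and 10.54 and 10.48 at 3xEC50 in RS4:11, and 10.43 and 10.15 with vehicle, 10.47 and 10.34 at EC50 and 10.45 and 9.94 at 3xEC50 in SEM-K2. MCM4, at -0.14 ± 0.23 in SEM-K2 at 3xEC50, read 11.34 and 11.59 with vehicle, 11.41 and 11.77 at EC50 and 11.50 and 12.04 at 3xEC50 in RS4:11, and 11.26 and 11.59 with vehicle, 11.41 and 11.58 at EC50 and 11.43 and 11.15 at 3xEC50 in SEM-K2. In MCM4 and PRIM1, as in CDC6, SEM-K2 3xEC50 replicate 2 was the lowest array of that line. LIG1 and MCM10 were at -0.06 ± 0.25 and -0.12 ± 0.27 in RS4:11 at 3xEC50, and ASPM and CENPF at -0.11 ± 0.39 and -0.08 ± 0.24 in SEM-K2 at EC50. LIG1 read 9.53 and 10.03 with vehicle, 9.65 and 10.33 at EC50 and 9.65 and 9.80 at 3xEC50 in RS4:11, and 9.37 and 9.46 with vehicle, 9.49 and 9.48 at EC50 and 9.51 and 9.94 at 3xEC50 in SEM-K2. CENPF read 11.64 and 11.17 with vehicle, 11.74 and 11.35 at EC50 and 11.63 and 11.32 at 3xEC50 in RS4:11, and 11.78 and 11.67 with vehicle, 11.75 and 11.54 at EC50 and 11.73 and 12.22 at 3xEC50 in SEM-K2. For GINS1, CDC6, PRIM1, MCM4, LIG1, MCM10, ASPM and CENPF, no adjusted p of the fitted differences given was under 0.793.

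The comparison of the lines asks how the 50 genes differ between SEM-K2 and RS4:11 cells that received no obatoclax. The cyclin E genes CCNE1 and CCNE2 were lower and UBE2C was higher in SEM-K2, and the other 47 genes were not called. These 3 of 50 compare with 19.6% of all genes (10.0% higher, 9.6% lower). CCNE2, whose values stand above, was -1.98 ± 0.28 with vehicle (adjusted p = 0.000801), from 10.66 ± 0.05 in RS4:11 to 8.68 ± 0.69 in SEM-K2 (SD, n = 2). CCNE1 was -1.68 ± 0.51 (adjusted p = 0.0461), from 7.71 ± 0.68 to 6.03 ± 0.11. UBE2C was 1.67 ± 0.38 (adjusted p = 0.0126), from 10.03 ± 0.71 to 11.70 ± 0.47. With the replicate block 5 of 50 were called, with CDC20 and MKI67 added (26.8% of all genes), and without SEM-K2 vehicle replicate 1 only CCNE2 was. CCNE2 was called without each of the 12 arrays in turn. UBE2C lost its call without SEM-K2 vehicle replicate 1 and without RS4:11 vehicle replicate 2, and CCNE1 kept its call in 5 of the 12 cases.

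**Figure D5:**
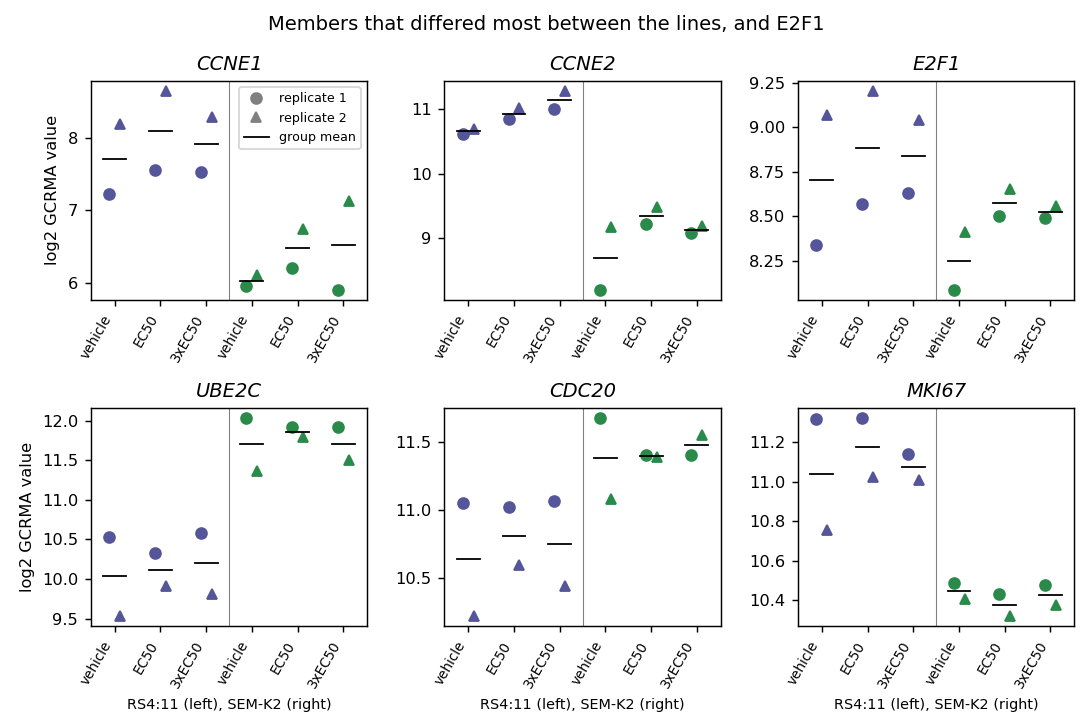
Log2 values of 6 genes on all 12 arrays, by treatment, with RS4:11 left of the grey line and SEM-K2 right of it; circles are replicate 1, triangles replicate 2 and black bars group means. CCNE1, CCNE2 and MKI67 lie lower and UBE2C and CDC20 higher on every SEM-K2 array than on any RS4:11 array, while E2F1 overlaps.

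Over the mean of the 3 treatments, 6 of 50 genes were called, 4 lower and 2 higher in SEM-K2, where 41.1% of all genes were called (17.8% lower, 23.3% higher). CCNE2 and CCNE1 were -1.86 ± 0.16 and -1.57 ± 0.29 and UBE2C was 1.64 ± 0.22. MKI67 read 11.32 and 10.76 with vehicle, 11.33 and 11.02 at EC50 and 11.14 and 11.01 at 3xEC50 in RS4:11, and 10.49 and 10.40 with vehicle, 10.43 and 10.32 at EC50 and 10.48 and 10.37 at 3xEC50 in SEM-K2. It was lower in SEM-K2, at -0.68 ± 0.11 (adjusted p = 0.00104), but its 3 other probe sets gave -0.27, -0.37 and -0.02. CDC20 read 11.05 and 10.22 with vehicle, 11.02 and 10.60 at EC50 and 11.07 and 10.44 at 3xEC50 in RS4:11, and 11.68 and 11.08 with vehicle, 11.40 and 11.39 at EC50 and 11.40 and 11.55 at 3xEC50 in SEM-K2. It was higher in SEM-K2, at 0.68 ± 0.19 (adjusted p = 0.0154). RFC3 read 10.81 and 10.72 with vehicle, 10.84 and 11.03 at EC50 and 10.85 and 11.10 at 3xEC50 in RS4:11, and 10.49 and 10.51 with vehicle, 10.52 and 10.70 at EC50 and 10.51 and 10.72 at 3xEC50 in SEM-K2. RFC3, at -0.32 ± 0.09 (adjusted p = 0.0199), was lower in SEM-K2 with overlap between the lines, and lost its call without RS4:11 EC50 replicate 2, RS4:11 3xEC50 replicate 2 or SEM-K2 EC50 replicate 1. In 5 of 50 genes, CCNE1, CCNE2, MKI67, UBE2C and CDC20, the 6 arrays of the lines did not overlap (27.9% of all genes). With the replicate block 14 of 50 were called, with ASPM, CCNB1, E2F1, LIG1, MCM10, MCM7, PCNA and RRM2 added, where 49.6% of all genes were. Over these treatments 18 of the 29 genes with several probe sets had 1 sign, and the second probe set of CCNE2 gave -2.29. The genes next in rank with vehicle after CDC20 and MKI67, at -0.45 ± 0.29 for E2F1, -0.37 ± 0.25 for LIG1, -0.36 ± 0.25 for MCM7, 0.72 ± 0.39 for ASPM, 0.64 ± 0.46 for CCNB1, 0.51 ± 0.49 for AURKA and 0.44 ± 0.41 for CENPE, were not called, with adjusted p-values from 0.263 to 0.566. For ASPM, CCNB1, AURKA and CENPE the 2 vehicle arrays of RS4:11 lay -1.07, -1.21, -1.14 and -1.001 apart (replicate 2 minus replicate 1), further than the lines did.

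Other genes of the same pathways, 36 of replication, 44 of mitosis and 31 cell cycle regulators that passed the filter, gave 0 calls in the 4 dose comparisons. Above 0 were 21, 22, 28 and 22 of the 36 in RS4:11 at EC50 and 3xEC50 and SEM-K2 at EC50 and 3xEC50, 41, 40, 41 and 38 of the 44, and 21, 21, 24 and 19 of the 31. Over all genes, in the same order, 0.0%, 0.0%, 0.17% and 0.824% were called and 55.7%, 54.0%, 61.9% and 58.6% lay above 0. In RS4:11 at 3xEC50 the differences largest in size were GINS4, a further GINS subunit, at -1.21 ± 1.14, the centrosomal kinase gene NEK2 at 0.71 ± 0.57 and the kinetochore gene SPC25 at 0.65 ± 0.34. In SEM-K2 at 3xEC50 they were GINS4 at -2.06 ± 1.14, CDKN1A, the gene of the CDK inhibitor p21, at 0.90 ± 0.26 and SGO1, a guardian of centromeric cohesion, at -0.67 ± 0.28. GINS4 read 7.96 and 7.78 with vehicle, 5.98 and 7.07 at EC50 and 5.69 and 7.63 at 3xEC50 in RS4:11, and 9.52 and 9.29 with vehicle, 9.28 and 9.22 at EC50 and 9.52 and 5.17 at 3xEC50 in SEM-K2, so that 1 SEM-K2 array set its mean. CDKN1A read 9.38 and 9.60 with vehicle, 9.30 and 9.50 at EC50 and 9.41 and 9.31 at 3xEC50 in RS4:11, and 10.15 and 9.28 with vehicle, 10.50 and 10.12 at EC50 and 10.68 and 10.56 at 3xEC50 in SEM-K2, with SEM-K2 vehicle replicate 2 the lowest array, and its adjusted p at 3xEC50 in SEM-K2 was 0.224. SGO1 read 7.55 and 7.59 with vehicle, 7.53 and 7.27 at EC50 and 7.52 and 7.36 at 3xEC50 in RS4:11, and 8.38 and 8.50 with vehicle, 8.58 and 8.49 at EC50 and 8.29 and 7.25 at 3xEC50 in SEM-K2, low on SEM-K2 3xEC50 replicate 2 alone.

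Between the replicate sets the calls in the other replication and mitosis lists had the directions of the 50 genes. These lists too were chosen with earlier results of these data known. Over all genes tested 4.6% were higher and 7.71% lower on replicate 2. Of the 36 other replication genes 4 were higher on replicate 2 and 0 lower, POLA1, POLA2 and POLE, all polymerase subunits, and CHAF1B, a histone chaperone subunit, with 29 of 36 above 0. Of the 44 other mitosis genes 11 were lower and 0 higher, with 6 above 0, from -0.88 ± 0.16 for NEK2 and -0.75 ± 0.12 for the spindle gene HMMR to -0.38 ± 0.10 for CKAP2. Of the 31 regulators, CDC25A, a phosphatase of the entry into S phase, was higher, at 0.40 ± 0.08. The CDK inhibitor genes CDKN2D and CDKN1B and the anaphase-promoting complex activator gene FZR1 were lower, at -0.78 ± 0.10, -0.35 ± 0.09 and -0.32 ± 0.08. The share of calls among the 31 regulators lay near the 12.3% called over all genes.

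Between the vehicle groups of the lines 1 of 36, 2 of 44 and 6 of 31 of these genes were called, against 19.6% of all genes, so that none of the 3 lists held more calls than the background. CDKN2A, which encodes the inhibitors p16 and ARF, ran from 10.83 to 11.45 on the SEM-K2 arrays and from 2.62 to 4.35 on those of RS4:11. It passed the filter through SEM-K2, where it was high. Counted from the floor of 4, since its RS4:11 vehicle mean lay under it, CDKN2A was at least 141-fold higher in SEM-K2 with vehicle. The E2F factor gene E2F2 was at -1.49 ± 0.29, its dimer partner gene TFDP1 at -1.27 ± 0.20, the cyclin D3 gene CCND3 at -1.46 ± 0.23, its kinase gene CDK6 at -0.55 ± 0.15 and the stress gene GADD45A at -1.52 ± 0.15, all lower in SEM-K2. The replication kinase gene CDC7, at -0.56 ± 0.17, and the kinetochore gene CENPU, at -0.71 ± 0.12, were lower too, and SMC4, a condensin gene, was higher at 0.46 ± 0.14.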

How the data were processed

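RNA of 12 cell cultures was measured on Affymetrix U133 Plus 2 arrays. The authors deposited 1 value per probe set, made with GCRMA per the submitters' processing notes, and the deposited values are read here as log2 from their range; the version was not given in the sources used here. Genes were named from the platform annotation (41091 of 54675 probe sets had 1 symbol), and 10561 genes above 4 on at least 2 arrays were tested. Group means were fitted with limma 3.58.1 (lmFit, eBayes, R 4.3.3), with p-values adjusted after Benjamini-Hochberg over all of them and called under 0.05; the fit was tested on simulated data. The replicate difference came from a fit with group and replicate number as terms, and its SE is that of this fit. The values left no depth to give, and 2 arrays per group limit the precision. A p-value sets a difference against the spread between these cultures. In the fits without the replicate block that spread includes the difference between the replicate sets.

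Same-numbered arrays deviated from their group means together in all 15 pairs of groups (correlation 0.19 to 0.60, median 0.35). A principal component, PC2, that held 6.23% of the variance separated the numbers. The number was therefore used as pairing in the within-set differences, the replicate test and the fits with the replicate block. The main fits of dose and line did not include it, so their SEs and p-values ignore the pairing. What a number stands for was not given in the sources used here. Values per array are given for members called in any comparison, the 3 largest rises and falls per dose comparison, the 6 largest per direction between the lines with vehicle, the 4 largest replicate differences, and members with 1 sign in both sets and both doses of a line over 0.5 in mean at 3xEC50. The members and the other gene lists were chosen with earlier results of these data known. Settings tried were the replicate block, no filter, averaged probe sets, no _x_at probe sets, a second quantile normalization, a trended robust prior and leaving out each array in turn. The fits within 1 line, the comparison of the replicate difference between lines, and the replicate difference without single arrays were added after seeing the data. Promoter windows came from RefSeq (GRCh38.p14).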

Additional observations from a re-analysis of the deposited data

How the results depend on the processing

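The dose comparisons gave 0 calls among the 50 genes under every setting tried, with and without the replicate block, although the block raised the calls over all genes in SEM-K2 from 18 to 46 at EC50 and from 87 to 220 at 3xEC50. Between the lines the calls were 5 with the block and 1 without a filter for the vehicle groups, and 14 with the block for the mean of the treatments; the block changed no other count of members called. The replicate difference was called for 8 genes without a filter and 0 on SEM-K2 arrays alone. Quantile normalization again moved the replication medians to 0.088 in RS4:11 at 3xEC50 and 0.11 in SEM-K2 at EC50.

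Without single arrays the calls ran from 1 to 3 for the vehicle groups of the lines, 5 to 9 for the mean of the treatments and 7 to 25 for the replicate difference. The replication medians ran from -0.10 to 0.32 in RS4:11 at EC50, -0.083 to 0.32 at 3xEC50, 0.016 to 0.24 in SEM-K2 at EC50 and 0.022 to 0.31 at 3xEC50, and the mitosis medians from -0.21 to 0.68, -0.19 to 0.67, -0.13 to 0.40 and -0.12 to 0.39. Single genes turned sign in RS4:11 at EC50 (CDC6 -0.39 to 0.065, GINS1 -0.18 to 0.079, PRIM1 -0.17 to 0.10, CCNE1 -0.16 to 0.94) and at 3xEC50 (MCM10 -0.37 to 0.14, GINS1 -0.21 to 0.048, LIG1 -0.31 to 0.19, DLGAP5 -0.24 to 1.25). In SEM-K2 they did so at EC50 (ASPM -0.25 to 0.019, GINS1 -0.25 to 0.063, CENPF -0.19 to 0.029) and at 3xEC50 (MCM4 -0.30 to 0.029, GINS1 -0.27 to 0.049, CCNE1 -0.12 to 1.10), and between the vehicle groups of the lines AURKA (-0.064 to 1.08) and CENPE (-0.056 to 0.94) did. The cause was not tested. Where an array was left out, the lone array of its group was assumed to vary like the other groups.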
